A study of Mus musculus with 4 samples.

Results

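Sipa1 and the genes of the Rap1 GTPase cycle around it were followed through 4 arrays of sorted tumor cells. They are *Sipa1*, its relatives *Sipa1l1*, *Sipa1l2* and *Sipa1l3*, the other Rap GTPase-activating proteins *Rap1gap* and *Rap1gap2*, the GTPases *Rap1a* and *Rap1b*, and the exchange factors *Rapgef1* and *Rapgef3*. These 10 genes, of 22911 gene symbols to which the array spots could be matched, were taken by name. Earlier results of these data were known when they were chosen. They were represented by 17 probes, each printed once per array. Of these, 14 were well above background on all 4 arrays and 3 on none.

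Rap1 is a small GTPase that works as a switch, active when bound to GTP and inactive when bound to GDP. Exchange factors load it with GTP, and GTPase-activating proteins such as Sipa1 (also called Spa-1) speed up the hydrolysis of that GTP and so turn it off. In leukocytes, active Rap1 is known for turning on integrins, and in other cells for its part in cell adhesion and junctions.

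The arrays held RNA of mesenchymal stroma cells (MSCs) and CD8 T cells from subcutaneous tumors in wild type (Wt) and *Sipa1* knock out (Sipa1-/-) C57BL/6Ncr mice aged 8 weeks. The tumors came from GFP+ hematopoietic progenitor cells carrying Bcr-abl, a leukemia oncogene, which were injected in Matrigel into mice of both genotypes and taken out on day 12. These tumor cells were derived from Wt bone marrow, so only the host cells of the Sipa1-/- mice lacked Sipa1. MSCs were sorted as GFP- CD45- Ter119- CD31- cells, a gate defined by the absence of markers, and CD8 T cells as GFP- TCRb+ CD8+ cells. The series gives 5 mice per genotype and 1 array per cell type and genotype. Whether RNA of several mice was pooled on an array is not stated in the sources used here.

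Each value below is a log2 processed signal minus the 75th percentile of its array, so that 0 lies at the 75th percentile, and a difference of 1 is 2-fold. With 1 array per condition, differences could not be set against replicates and went untested, and the number of arrays limits the precision. Probes printed many times on each array gave a median spot SD of 0.039 to 0.043 for bright signals (above 0). The median was 0.073 to 0.096 for signals from -2 to 0 and 0.135 to 0.193 below -2. The dimmer ranges rested on 6 to 10 probes each. In the same order, the 95th percentile of the spot SD was 0.072 to 0.078, 0.115 to 0.167 and 0.237 to 0.863. The SD given with a difference combines the median spot SDs of both arrays. It covers spot error and not the spread between mice or sorts. Levels of different probes are not comparable, so differences were taken for each probe with itself across arrays. The summed and ranked marker levels below are an exception, as they mix probes and depend on how bright each probe is. All 4 arrays lay on one slide with one scan time, so slide and scan do not separate the groups.

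The arrays were checked against markers of the sorted cells. All 10 mesenchymal markers were well above background on every array, with a log2 summed level of 9.98 on the Wt and 10.6 on the Sipa1-/- MSC array, and 8.01 and 8.44 on the CD8 T arrays. The 9 CD8 T markers summed to 9.29 and 9.33 on the CD8 T arrays and to 5.93 and 6.60 on the MSC arrays, where *Cd8a* was not well above background in Wt. *Thy1* belongs to both lists and carried a large part of the sums on the arrays of the other cell type. It was the brightest CD8 T marker on the MSC arrays, at 5.41 in Wt and 6.55 in Sipa1-/-. On the CD8 T arrays it was the brightest mesenchymal marker, at 7.37 and 7.46. The median CD8 T marker read -2.56 and -1.75 on the MSC arrays, and the median mesenchymal marker 2.68 and 4.30 on the CD8 T arrays. RNA of other cells differed between the arrays. The 9 B-lineage markers were all at least 2-fold lower on the Sipa1-/- MSC array, with a summed level of 9.37 in Wt and 5.36 in Sipa1-/-, and the 5 pan-leukocyte markers were lower as well, from 6.33 to 3.90. On the CD8 T arrays, 8 of 10 mesenchymal markers were at least 2-fold higher and 3 of 4 measured granulocyte markers at least 2-fold lower in Sipa1-/-, the latter with summed levels of 9.17 and 8.27. Of the B-lineage markers, 3 of 9 were at least 2-fold lower there (*Igll1* -2.21, *Vpreb1* -2.04 and *Vpreb3* -1.82), as were 2 of 3 measured erythroid markers (*Hbb-bt* -1.26 and *Hba-a1* -1.09). The erythroid markers summed to 9.14 and 9.26 on the Wt and Sipa1-/- MSC arrays, although that gate excluded Ter119+ cells, and to 3.84 and 2.68 on the CD8 T arrays. The part of these cells in the results below was not tested, except where a value is given. In sorted bulk samples, fewer cells of a type and less RNA per cell cannot be told apart.

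**Figure D1:**
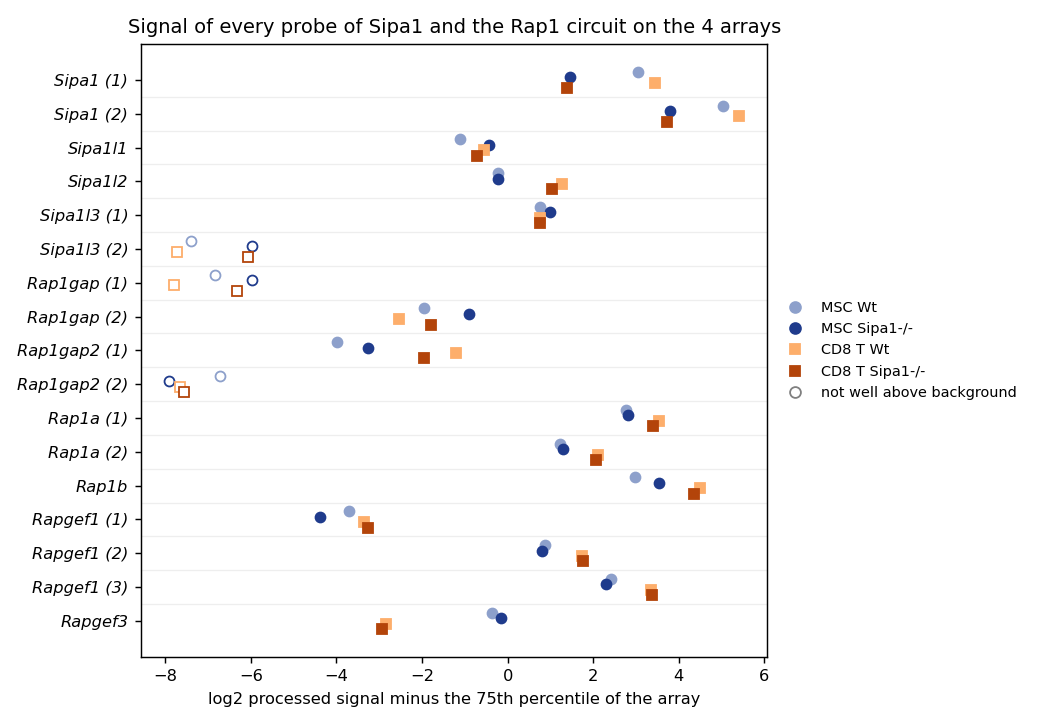
Log2 processed signal minus the 75th percentile of the array (x axis) for the 17 probes of the 10 genes, 1 point per array, with circles for MSCs, squares for CD8 T cells and darker colors for Sipa1-/-. Open symbols mark the 3 probes that were not well above background on any array; both *Sipa1* probes sit higher on the Wt arrays of both cell types. Probes of one gene are numbered in the order of their identifiers.

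*Sipa1* is the gene removed in the knock out mice and was the only one of the 10 that was at least 2-fold lower in both cell types of the knock out. Probe A_55_P2133840 read 5.03 in Wt MSCs, 3.78 in Sipa1-/- MSCs, 5.40 in Wt CD8 T cells and 3.73 in Sipa1-/- CD8 T cells. Probe A_51_P191331 read 3.05, 1.46, 3.43 and 1.39 on the same arrays. Both probes had the same order, with Wt CD8 T cells highest, Wt MSCs next, and the Sipa1-/- arrays together below.

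The Sipa1-/- signal did not fall to background. In MSCs it was 42.1% of the Wt signal with the first probe and 33.3% with the second, and in CD8 T cells 31.4% and 24.2%. On the Sipa1-/- arrays the dimmer reading of the second probe, in CD8 T cells, still lay 118-fold above the lowest signal counted as well above background there. Which part of the gene is missing in these mice, and where the probes lie relative to it, is not given in the sources used here. The tumor cells were of Wt origin, and all 9 B-lineage markers were well above background on both Sipa1-/- arrays. Their summed levels there were 5.36 for MSCs and 4.36 for CD8 T cells. What the residual *Sipa1* signal stems from was not tested. The 2 probes differed by 0.34 in their MSC difference and by 0.37 in their CD8 T difference. Over all genes with more than 1 probe, the median range between probes was 0.207 and 0.164.

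Averaged over both probes, *Sipa1* was lower by 1.42 log2 units on the MSC arrays (2.67-fold) and by 1.86 on the CD8 T arrays (3.63-fold). A still lower difference was found for 6.59% of all genes measured on the MSC arrays and for 0.377% on the CD8 T arrays. The difference was larger in CD8 T cells by 0.42 with the first probe and by 0.46 with the second, against a spot SD of about 0.06 for each difference. That gap between cell types was not tested over replicates. Wt CD8 T cells read above Wt MSCs by 0.37 and 0.38, and the Sipa1-/- arrays differed by 0.05 and 0.08 the other way. Which pair of arrays carried the gap depended on the scaling. On average over both probes, MSCs minus CD8 T cells gave -0.38 in Wt and 0.07 in Sipa1-/-. The constants of the authors' series matrix gave 0.08 and 0.59, and a median shift -0.61 and -0.16. Between genotypes, the B-lineage and pan-leukocyte markers differed by a median of -4.16 and -1.85 on the MSC arrays. On the CD8 T arrays their medians were -0.17 and -0.09. Their part in the *Sipa1* differences was not tested.

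Stretches of sequence are shown for the genes at the center of the differences, *Sipa1* itself and *Rapgef3*, which differed most between the cell types in the direction of MSCs. Each is the 250 bases before the annotated transcript start in RefSeq, build GRCm38.p6, written 5′ to 3′ on the strand of the gene. The *Sipa1* stretch lies on the minus strand at chr19:5663708-5663957 and that of *Rapgef3* on the minus strand at chr15:97767667-97767916. Capitals mark GC boxes, the 6-letter motif GGGCGG or its reverse complement CCGCCC, read on both strands.
Sipa1: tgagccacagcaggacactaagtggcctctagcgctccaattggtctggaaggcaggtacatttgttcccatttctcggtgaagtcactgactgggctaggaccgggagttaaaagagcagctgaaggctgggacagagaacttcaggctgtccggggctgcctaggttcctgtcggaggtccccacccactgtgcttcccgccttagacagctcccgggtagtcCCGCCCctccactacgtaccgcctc
Rapgef3: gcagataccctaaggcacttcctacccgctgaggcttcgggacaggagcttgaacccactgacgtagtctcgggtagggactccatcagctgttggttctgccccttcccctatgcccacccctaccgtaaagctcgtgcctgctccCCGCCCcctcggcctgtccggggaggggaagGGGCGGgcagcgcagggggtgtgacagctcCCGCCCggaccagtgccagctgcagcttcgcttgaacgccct
The *Sipa1* stretch holds 1 GC box and 59.2% G and C, and the *Rapgef3* stretch 3 boxes and 66% G and C. Of 32851 promoters of this length in the table, 32.7% hold at least 1 such box. A match describes the letters only. Promoter stretches were available for 9 of the 10 genes, with none for *Rap1a*. There were 7 starts for *Rap1gap* and 4 for *Rap1gap2*, of which none is shown because the arrays do not say which start was in use.

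The 3 relatives of Sipa1 carry the same kind of Rap GTPase-activating domain, and none was at least 2-fold apart between the genotypes in either cell type. *Sipa1l1* read -1.10 in Wt and -0.43 in Sipa1-/- MSCs, and -0.56 and -0.73 in CD8 T cells. Its MSC difference of 0.67 (spot SD 0.105) was 1.59-fold, and its CD8 T difference of -0.16 had a spot SD of 0.129. *Sipa1l2* read -0.22 on both MSC arrays, and 1.26 and 1.05 in Wt and Sipa1-/- CD8 T cells. *Sipa1l2* was set apart more by cell type than by genotype, with both MSC arrays below both CD8 T arrays by 1.48 in Wt and 1.27 in Sipa1-/-. Its CD8 T genotype difference was -0.22 (spot SD 0.056), and ran from -0.36 to -0.08 under 8 alternatives. *Sipa1l3* read 0.75 on 3 arrays and 1.00 in Sipa1-/- MSCs, a range of 0.25 that was the narrowest of the 14 probes well above background. The second *Sipa1l3* probe was not well above background on any array.

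*Rap1gap* and *Rap1gap2* encode Rap GTPase-activating proteins outside the Sipa1 family, and each had 1 probe that was not well above background on any array. The measured *Rap1gap* probe read -1.95 in Wt and -0.91 in Sipa1-/- MSCs, and -2.55 and -1.79 in CD8 T cells. It was higher in the knock out in both cell types, by 1.04 (spot SD 0.105, 2.05-fold) in MSCs and by 0.76 (spot SD 0.176, 1.69-fold) in CD8 T cells, which made it the highest difference of the 10 genes in both. The MSC value lay just past 2-fold and fell below it, to as little as 0.79, under 3 of 7 alternatives. The CD8 T value passed 2-fold, at 1.11, when the dim probe was kept.

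*Rap1gap2* differed in opposite directions. Its measured probe read -3.99 in Wt and -3.26 in Sipa1-/- MSCs, 0.73 higher (spot SD 0.208), but -1.21 and -1.96 in CD8 T cells, 0.75 lower (spot SD 0.129). Both MSC readings lay in the range below -2, where the spot SD was largest, 3.65-fold and 5.77-fold above the lowest signal counted as well above background. The MSC difference turned to -0.23 when the dim probe was averaged in. Between cell types it had the lowest difference of the 10, with Wt MSCs 2.78 below Wt CD8 T cells (6.88-fold) and Sipa1-/- MSCs 1.30 below (2.46-fold). The Wt difference shrank to -1.65 with normexp and to -0.92, under 2-fold, with no flags. The Sipa1-/- difference fell under 2-fold with the series matrix values (-0.77), normexp (-0.80) and no flags (-0.82).

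The GTPases themselves were brighter in CD8 T cells with every probe. *Rap1a* read 2.77 and 2.80 in Wt and Sipa1-/- MSCs and 3.54 and 3.40 in CD8 T cells with probe A_51_P228632, and 1.23, 1.29, 2.10 and 2.06 with probe A_55_P2722945. The genotypes differed by 0.05 (MSCs) and -0.09 (CD8 T cells) on average, and the sign of the first turned under a median shift and of the second under the series matrix values. *Rap1b* read 2.99 in Wt MSCs, 3.55 in Sipa1-/- MSCs, 4.48 in Wt CD8 T cells and 4.36 in Sipa1-/- CD8 T cells. It was 0.56 higher (1.48-fold, spot SD 0.059) in Sipa1-/- MSCs and 0.13 lower (spot SD 0.056) in Sipa1-/- CD8 T cells, the latter turning to 0.01 higher with the series matrix values. The gap between cell types for *Rap1b* was 1.50 in Wt and 0.81 in Sipa1-/-.

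Among the exchange factors, *Rapgef1*, which acts downstream of Crk adaptors, was measured by 3 probes. Probe A_55_P2070721 read 0.86 and 0.81 in MSCs and 1.74 and 1.77 in CD8 T cells of Wt and Sipa1-/- mice. Probe A_55_P2732423 read 2.42, 2.31, 3.35 and 3.37 in that order, but carried a flag for uneven local background on both Wt arrays and was left out of every mean that used these. The dim probe A_52_P203322 read -3.70, -4.39, -3.35 and -3.26. All 3 placed both CD8 T arrays above both MSC arrays. The genotype difference of -0.37 in MSCs was carried by the dim probe, which gave -0.69 (spot SD 0.208) where the other two gave -0.06 and -0.11, and all 3 gave 0.02 to 0.09 in CD8 T cells, where the sign of the mean turned under a median shift.

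*Rapgef3* (Epac1), an exchange factor that is switched on by cyclic AMP, had the reverse order. It read -0.37 in Wt and -0.16 in Sipa1-/- MSCs, and -2.83 and -2.94 in CD8 T cells. Both MSC arrays lay above both CD8 T arrays, by 2.47 in Wt (spot SD 0.166, 5.54-fold) and by 2.78 in Sipa1-/- (spot SD 0.206, 6.86-fold). The genotypes differed by 0.21 in MSCs. Their CD8 T difference of -0.10 was less than its spot SD of 0.243, and its sign turned with the series matrix values and with normexp, an alternative background correction. Under normexp the gap between cell types was 1.73 and 1.86.

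**Figure D2:**
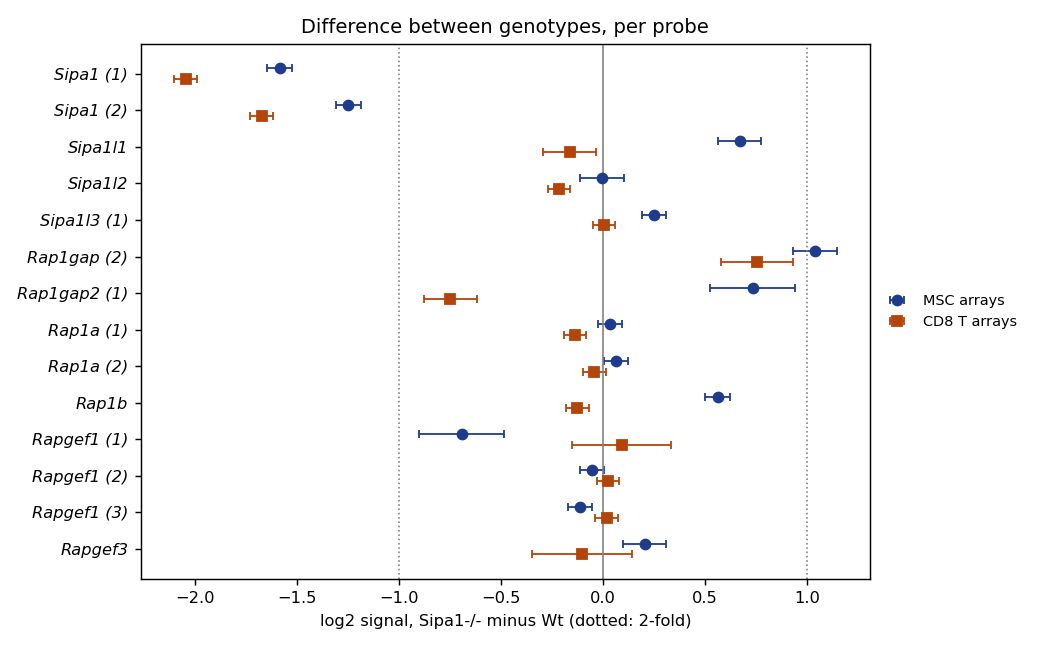
Log2 signal of Sipa1-/- minus Wt (x axis) for the 14 probes well above background, with circles for the MSC arrays and squares for the CD8 T arrays; bars are the spot SD of the difference and dotted lines mark 2-fold. Both *Sipa1* probes lie below -1 in both cell types, and the *Rap1gap2* probe lies at 0.73 on the MSC and -0.75 on the CD8 T arrays.

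In counts over the genes, 1 of 10 was at least 2-fold higher (*Rap1gap*) and 1 lower (*Sipa1*) in Sipa1-/- MSCs, where 19.3% of the 15298 genes measured on both arrays were at least 2-fold higher and 11.3% lower. The median difference of the 10 genes was 0.23, against 0.04 for all genes. In CD8 T cells, none was at least 2-fold higher and 1, again *Sipa1*, was lower, where 2.66% of 14339 genes were higher and 1.4% lower. The median was -0.11, against -0.02 for all genes. In both cell types, the 9 genes other than *Sipa1* thus held 1 value past 2-fold among their genotype differences.

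Between cell types of Wt mice, *Rapgef3* was at least 2-fold higher in MSCs, and *Sipa1l2*, *Rap1gap2* and *Rap1b* were at least 2-fold lower. That is 1 and 3 of 10, where 17.3% of 14225 genes were higher and 12.8% lower. In Sipa1-/- mice, *Rapgef3* was again higher, and *Sipa1l2*, *Rap1gap2* and *Rapgef1* were lower, 1 and 3 of 10, where 21.9% of 14300 genes were higher and 18.7% lower. *Rap1b*, at -0.81 in Sipa1-/-, and *Rapgef1*, at -0.61 in Wt and -1.05 in Sipa1-/-, lay on different sides of 2-fold in the 2 genotypes. The *Rapgef1* means rest on 2 probes in Wt and 3 in Sipa1-/-, and their change was carried mainly by the dim probe. That probe gave -0.35 in Wt and -1.13 in Sipa1-/-. Probe A_55_P2070721 gave -0.88 and -0.96, and probe A_55_P2732423, flagged on the Wt arrays, gave -0.93 and -1.06. With the series matrix values none of the 3 lower genes in Sipa1-/- stayed past 2-fold, at -0.74 for *Sipa1l2*, -0.77 for *Rap1gap2* and -0.52 for *Rapgef1*. *Rap1gap* was then a second higher gene, at 1.05 in Wt and 1.41 in Sipa1-/-. The median difference was -0.58 in Wt and -0.31 in Sipa1-/-, against -0.06 and -0.18 for all genes. The genotype and cell type comparisons share arrays, so they are not independent of each other. The pan-leukocyte markers were at least 2-fold lower in MSCs for 5 of 5 genes in both genotypes, whereas the B-lineage markers were at least 2-fold higher for 9 of 9 in Wt and 4 of 9 in Sipa1-/-.

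**Figure D3:**
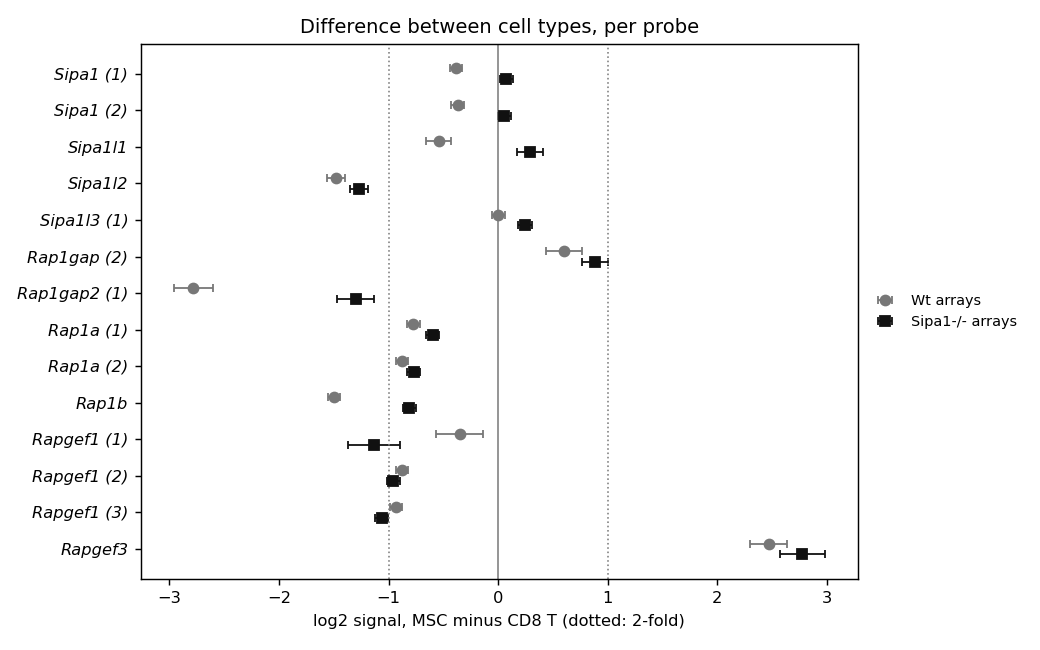
Log2 signal of MSCs minus CD8 T cells (x axis) for the 14 probes well above background, with circles for the Wt arrays and squares for the Sipa1-/- arrays; bars are the spot SD of the difference and dotted lines mark 2-fold. *Rapgef3* lies above 2 in both genotypes, and *Rap1gap2* at -2.78 in Wt and -1.30 in Sipa1-/-.

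The rest of the Rap pathway was read from a list of 38 further genes in 5 roles, also chosen with earlier results of these data known. On the MSC arrays 35 were measured, of which 7 lay above and 8 below the 2-fold limits in Sipa1-/-, against 19.3% and 11.3% of all genes, with a median of 0.04. On the CD8 T arrays 36 were measured, and 0 were past 2-fold in either direction, against 2.66% and 1.4% of all genes, with differences from -0.88 to 0.55. One more gene, *Radil*, was well above background on the Sipa1-/- CD8 T array but not on the Wt one, at least 3.07-fold higher in Sipa1-/-. It read -3.95 on that array and 0.14 in Sipa1-/- MSCs. The mesenchymal markers were higher by a median of 1.62 between the CD8 T genotypes, and their part was not tested. The lower genes on the MSC arrays were exchange factors and effectors.

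Of 9 measured exchange factors, 5 were at least 2-fold lower and 2 higher in Sipa1-/- MSCs, where 11.3% of all genes were lower and 19.3% higher. *Rasgrp2* (CalDAG-GEFI), the calcium-responsive exchange factor of platelets and leukocytes, read 4.60 in Wt and 0.88 in Sipa1-/- MSCs with one probe and 3.42 and -0.30 with the other, a mean difference of -3.72. *Rapgef5* differed by -3.05 and *Rasgrp1*, which is known for Ras activation in T cells, by -2.20. *Rasgrp3* at -1.25 and *Rapgef6* at -1.08 were lower as well, whereas *Plce1* at 1.48 and *Dock4* at 1.47 were higher. In CD8 T cells the same role spanned -0.38 to 0.38. The B-lineage and pan-leukocyte markers moved the same way as the lower genes on these arrays, by a median of -4.16 and -1.85, and their part was not tested.

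Of 15 effectors and partners, 3 were at least 2-fold lower and 2 higher in Sipa1-/- MSCs, against the same 11.3% and 19.3%. *Stk4* (Mst1), a kinase, had -2.37, with 0.28 and 2.46 in Wt against -2.04 and 0.04 in Sipa1-/- by its 2 probes. *Fermt3*, the hematopoietic kindlin that binds integrin tails, read 1.43 and -0.42, a difference of -1.85, and *Rassf5* (RAPL), a Rap1 effector of lymphocytes, had -1.48. Higher were the polarity protein gene *Pard3* at 1.73 and *Radil* at 1.65, and the mesenchymal markers were above 0 for 9 of 9 measured genes, with a median of 0.86.

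The remaining roles held single genes past 2-fold. *Garnl3*, of the GTPase-activating proteins, read -2.46 in Wt and -0.73 in Sipa1-/- MSCs, 1.73 higher, as 1 of 3 measured. *Rap2a*, of the other Rap GTPases, read 0.04 and 1.43, 1.38 higher, as 1 of 3. *Bcar1* (p130Cas), of 5 adaptors, was 1.00 higher on average, but its 2 probes gave 1.86 and 0.15. Between cell types, *Skap1*, an adaptor that couples the T-cell receptor to integrins, differed by -7.01 (MSC minus CD8 T) in Wt. *Rapgef4* (Epac2), the relative of *Rapgef3*, was not well above background on the MSC arrays with any of its 3 probes. On the CD8 T arrays 2 of them were measured, at least 8.34-fold and at least 24.5-fold above Wt MSCs. These bounds set the lowest signal counted as well above background in place of the MSC reading.

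**Figure D4:**
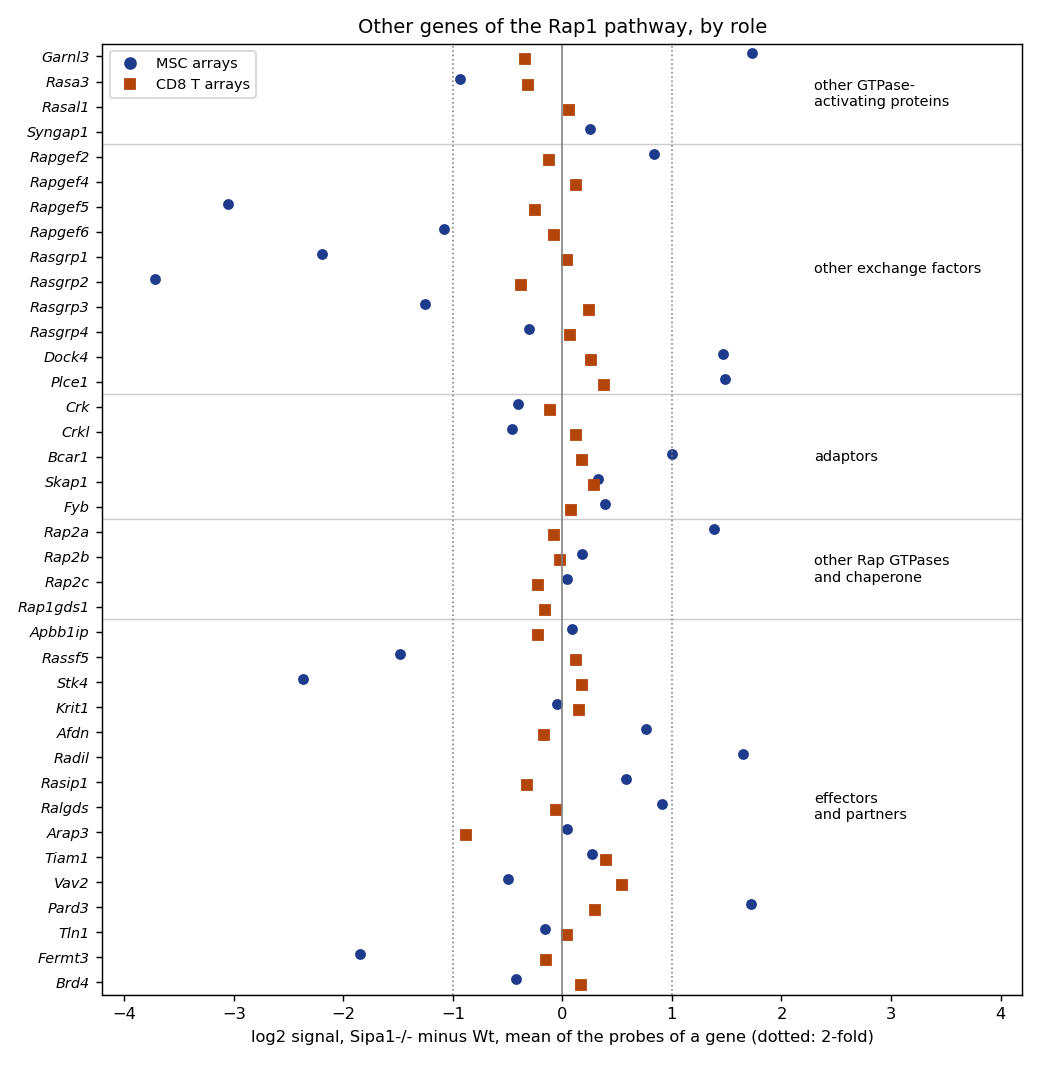
Log2 signal of Sipa1-/- minus Wt (x axis), as the mean over the probes of a gene, for the 38 listed pathway genes in their 5 roles, with circles for the MSC arrays and squares for the CD8 T arrays; a missing symbol means that no probe passed the flags on both arrays. The CD8 T values stay within the dotted 2-fold lines, and the MSC values run from -3.72 (*Rasgrp2*) to 1.73 (*Garnl3*).

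The genes named here for a pattern over the 4 arrays near to that of *Sipa1* were *Ifitm1*, *Fpr1*, *Osm* and *Cndp2*, among 6677 genes above the median signal. Likeness was the Euclidean distance between the 4 log2 values after centering each gene, and ran from 0.71 to 0.94 for these. *Ifitm1* read 2.65 and 1.82 in MSCs and 4.01 and 1.53 in CD8 T cells of Wt and Sipa1-/- mice. Unlike *Sipa1*, all of these genes were at least 2-fold apart between the genotypes only on the CD8 T arrays. *Ifitm1* differed there by -2.48, *Fpr1* by -2.09, *Osm* by -1.72 and *Cndp2* by -1.07. On the MSC arrays they differed by -0.82, -0.33, -0.16 and -0.40 in that order. The distance rests on 4 values per gene. The granulocyte markers had a median difference of -1.19 on the CD8 T arrays and 0.14 on the MSC arrays, and their part in this likeness was not tested.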

How the data were processed

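RNA of sorted MSCs and CD8 T cells was labeled with Cy3 and hybridized in one color to Agilent SurePrint G3 mouse arrays, 1 per cell type and genotype. The deposited scanner files hold spot intensities that the authors' Feature Extraction software had corrected for background. The sample labels give its version as 9.1 and the file headers as 12.0.3.1. The authors' series matrix holds the same intensities times 1 constant per array. How the constants were chosen is not given in the sources used here.

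Of 59305 spots per array that were not controls, 57.6% matched a symbol through their accession in a RefSeq table of GRCm38.p6, used for names only. The processed signals were taken to log2 and the 75th percentile of each array was subtracted. Spots had to be unsaturated, uniform in spot and background, and well above background on both arrays compared, which 59.7% to 64.3% of spots passed per array. No spot was saturated. Spots were averaged per probe and probes per gene, and genes at least 2-fold apart were counted. No p-value was computed with 1 array per condition. The calculation of differences was run on simulated data with planted changes, which checks the code and not the differences reported here.

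The genes named were the 10 members, up to 3 pathway genes per role with the largest difference past 2-fold between genotypes, and the 5 genes nearest to *Sipa1* in pattern, of which 1 is not reported here. Other pathway genes named (*Rasgrp3*, *Rapgef6*, *Plce1*, *Dock4*, *Rassf5*, *Radil*, *Skap1* and *Rapgef4*) were chosen after their values were seen. The members and lists were chosen with earlier results of these data known. Alternatives were a median shift, quantile normalization, the series matrix, normexp with an offset of 50 (limma 3.58.1 in R 4.3.3), other rules on flags, the brightest probe of a gene, and only genes above the median signal. Other steps used Python 3.11.15, numpy 2.4.6 and pandas 2.3.3.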

Additional observations from a re-analysis of the deposited data

Results flagged for a closer look

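*Rap1gap2* was higher in Sipa1-/- than in Wt MSCs and lower in Sipa1-/- than in Wt CD8 T cells, so that its genotype differences lay 1.48 log2 units apart. *Rap1b* was likewise higher in Sipa1-/- MSCs and lower in Sipa1-/- CD8 T cells, 0.69 log2 units apart. In both genes each difference was more than 2 median spot SDs from 0. The 95th percentile of the spot SD for dim signals on the Sipa1-/- MSC array was 0.863, above the *Rap1gap2* difference of 0.73 in MSCs. For bright signals it was 0.078 on the Wt and 0.075 on the Sipa1-/- CD8 T array, against a *Rap1b* difference of -0.13. These differences between the cell types were not tested, as there was 1 array for each genotype. The CD8 T difference of *Rap1b* turned to 0.01 with the series matrix values, and the MSC difference of *Rap1gap2* to -0.23 when no flags were asked.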

How the results depend on the processing

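No paired analysis was possible because a condition is a single array, and no array could be left out. *Sipa1* stayed at least 2-fold lower under all 8 alternatives run, between -1.56 and -1.21 on the MSC arrays and between -2.01 and -1.67 on the CD8 T arrays. Of the 10 genes, the number at least 2-fold higher in Sipa1-/- MSCs went from 1 to 0 under a median shift, normexp and no flags, and when genes at or under the median signal were dropped, which left 5 or 6 of the 10 per comparison. In Sipa1-/- CD8 T cells it went from 0 to 1 with no flags. For MSCs over CD8 T cells, the number higher went from 1 to 2 with the series matrix and to 0 when dimmer genes were dropped, in both genotypes, and the number lower in Sipa1-/- from 3 to 0 with the series matrix and to 1 with normexp.

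The series matrix moved the median of all genes by 0.21 (MSC genotypes), 0.13 (CD8 T genotypes), 0.45 (Wt cell types) and 0.53 (Sipa1-/- cell types), and a median shift by -0.14, -0.15, -0.23 and -0.22. Of the genes past 2-fold, 63.1%, 65.5%, 57.4% and 54.0% were higher, and with the series matrix 74.1%, 76.3%, 76.6% and 76.3%. A median shift gave 52.5%, 45.5% and 42.9% for the last 3, and for the CD8 T genotypes normexp gave 52.4% and dropping dimmer genes 48.9%. Counts over all genes that moved by over 1.5 times were these. Of 2958 higher and 1733 lower genes between MSC genotypes, 1307 and 901 were left without dimmer genes, and normexp gave 1828 higher. Between CD8 T genotypes, 381 and 201 became 67 and 70 without dimmer genes, 108 and 98 with normexp, 685 and 371 with flags asked of 1 array, and 1059 and 633 with none. Between cell types, 2457 and 1821 (Wt) and 3131 and 2671 (Sipa1-/-) became 860 and 861, and 1307 and 1384, without dimmer genes. The higher genes became 3898 and 4739 with flags asked of 1 array and 4185 and 5019 with none, and the lower genes 1082 and 1357 with the series matrix. The depth limit is the background: 3 of the 17 probes have no difference here.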
